A study of Mus musculus with 384 samples.

Results

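Gfra2 encodes a receptor of the glial cell line-derived neurotrophic factor (GDNF) family, and it was followed here as a single assay in single common lymphoid progenitors (CLPs) of mouse bone marrow. It was the 1 row of that name among 96 assays of the panel, and it was picked because its detection in single cells was already known to go with that of Pax5. Its share of cells and the genes found with or apart from it are therefore given as descriptions with no test, and tests are kept to the level of expression in cells where a transcript was found, and to the pooled wells.

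The proteins of this family are anchored to the membrane by a lipid and have no kinase of their own. They bind a ligand of the family, neurturin in the case of Gfra2, and signal through the receptor tyrosine kinase Ret. They are best known from neurons, above all those of the gut and of the autonomic nervous system. A CLP can give rise to B, T and NK cells and to some dendritic cells. Its turn towards the B lineage is marked by the surface protein Ly6d and by the transcription factor Ebf1, followed by Pax5, which commits the cell to that lineage.

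All cells came from wild-type mice of the C57/Bl6 strain and were sorted by flow cytometry as negative for lineage markers and B220, positive for Flt3 and Il7r, and low for Kit and Sca1. Transcripts were amplified in the well with the 96 TaqMan assays together and read by quantitative PCR on a microfluidic chip. The 4 plates, labelled P0 to P3, each held 90 wells of 1 cell, 1 well of 20 cells, 1 well of 10 cells and 4 wells without reverse transcription (no-RT). The labels do not say whether the plates came from separate mice, so p-values reflect no more than plate-to-plate spread, part of which may be technical.

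The value of an assay is the threshold cycle (Ct), which is low where a transcript is abundant and 40 where no product appeared. A Ct below 28 was taken as a product, and the level of a gene was 28 minus Ct, so that 1 cycle is 1 log2 unit. Of 360 single-cell wells, all but 13 passed quality control (86 or 87 on each plate), with 22 to 54 assays giving a product in a cell. None of the 13 wells left out had a Gfra2 product, and 10 of these had no product at all. The no-RT wells gave a product for 1 to 9 assays. Among the defining genes of the sorted population Kit gave a product in 97.4% ± 1.1 of kept cells (SD, n = 4 plates). The T cell genes Cd3e and Cd2 gave none. Other T lymphoid genes were found in some cells, Gata3 in 14.1%, Cd4 in 10.9%, Cd5 in 9.8% and Cd8a in 0.57%.

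Gfra2 was either clearly present or not found at all. A product was seen in 23 of 86 cells on P0, 18 of 87 on P1, 21 of 87 on P2 and 25 of 87 on P3. The shares were thus 26.7%, 20.7%, 24.1% and 28.7%, with a mean of 25.1% ± 3.5 (SD, n = 4 plates). In all, 87 cells had a product (25.1% of kept cells, exact 95% interval 20.6% to 30.0%, which covers counting error only). The other 260 cells were at 40, and 0 cells lay between 28 and 40. In no-RT wells Gfra2 gave a product in 0 of 16, which allows a share of up to 18.8%. By share of cells Gfra2 stood at position 53 of 88 assays, counted from the highest, with Pax5 (25.9% ± 2.0) just above it and Itgax (23.0% ± 3.3) just below. Those neighbours differed from it by less than the spread between plates.

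Where Gfra2 was on, it was read early. On P0 the Ct of positive cells was 9.87 at its lowest, 13.5 at the median and 19.8 at its highest. On P1 these values were 9.94, 13.3 and 20.1, on P2 9.65, 12.7 and 16.4, and on P3 10.3, 13.5 and 16.2. The plates overlapped almost wholly, and their medians averaged 13.3 ± 0.38 (SD, n = 4). Only 2 cells, on P0 and P1, had a Ct of 17 or more, and the next lay at 16.4. The limit of 28 thus ran through an empty stretch, and no cell lay just inside or just outside it.

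Pooled wells carried Gfra2 as well. The wells of 20 cells read a Ct of 10.7, 9.64, 9.26 and 9.60 on P0 to P3, and the wells of 10 cells read 24.7, 12.7, 9.02 and 12.1. As levels, the wells of 20 cells averaged 18.2 ± 0.63 cycles and those of 10 cells 13.4 ± 6.9 (SD, n = 4 each). The level was higher with 20 cells on 3 of 4 plates, by 4.81 cycles over all plates (95% interval -1.69 to 15.42). The groups overlapped and the difference did not pass an exact two-sided permutation test (p = 0.143, n = 4 each, smallest possible p 0.0286).

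The 10-cell well of P0 carried most of that spread. It gave a product for 29 assays, against 68 to 71 in the other wells of 10 cells, and without P0 the difference was 1.76 cycles (exact permutation p = 0.4, n = 3 each). Once each well was centred on its reference genes the sign turned, to -0.16 cycles (exact permutation p = 0.857, n = 4 each). The wells of 10 cells were also set against 10 times the mean single cell of the same plate, cells without a product counted as 0, which came to 17.39, 17.02, 17.49 and 17.04 cycles. The wells of 10 cells differed from that by -3.85 cycles (95% interval -14.17 to 1.96, exact two-sided permutation p = 0.314, n = 4 each), or by -0.44 without P0. These permutation tests and intervals took the values as unpaired, although each plate gave 1 value to each group. The difference was 0.41 after centring on the reference genes, so that neither comparison has a settled direction.

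Of 11 genes of the GDNF receptor pathway, a list of ligands, co-receptors and Ret, 1 was on the panel, Gfra2 itself. The ligands, the paralogous co-receptors and Ret were not analysed here.

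Gfra2 was found mostly in cells with Pax5, the factor that fixes B cell identity. It had a product in 61 of 90 Pax5-positive cells (67.8%, exact 95% interval 57.1% to 77.2%) and in 26 Pax5-negative cells (10.1% of them, 6.72% to 14.5%). By plate the shares were 72.7%, 63.6%, 66.7% and 68.0% in Pax5-positive cells, against 10.9%, 6.15%, 10.6% and 12.9% in Pax5-negative cells. No plate of one kind came near a plate of the other.

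Cells were then ordered by the B lineage genes Ebf1, Ly6d and Pax5. Cells with all 3 products held Gfra2 in 60 of 87, and of the 3 Pax5-positive cells that lacked Ebf1 or Ly6d 1 had it. Cells with Ebf1 and Ly6d but no Pax5 held it in 20 cells (15.5%), with 21.2%, 9.38%, 13.8% and 17.1% on the 4 plates. Cells with Ebf1 alone held it in 1 of 38, on P2. Cells with Ly6d alone held it in 0 of 28, which allows a share of up to 10.7%. Cells with none of the 3 held it in 5 of 62 (8.06%), on P1, P2 and P3. Gfra2 was therefore also found in cells without these 3 products, although those 5 cells are few and their interval ran from 2.67% to 17.8%.

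**Figure D1:**
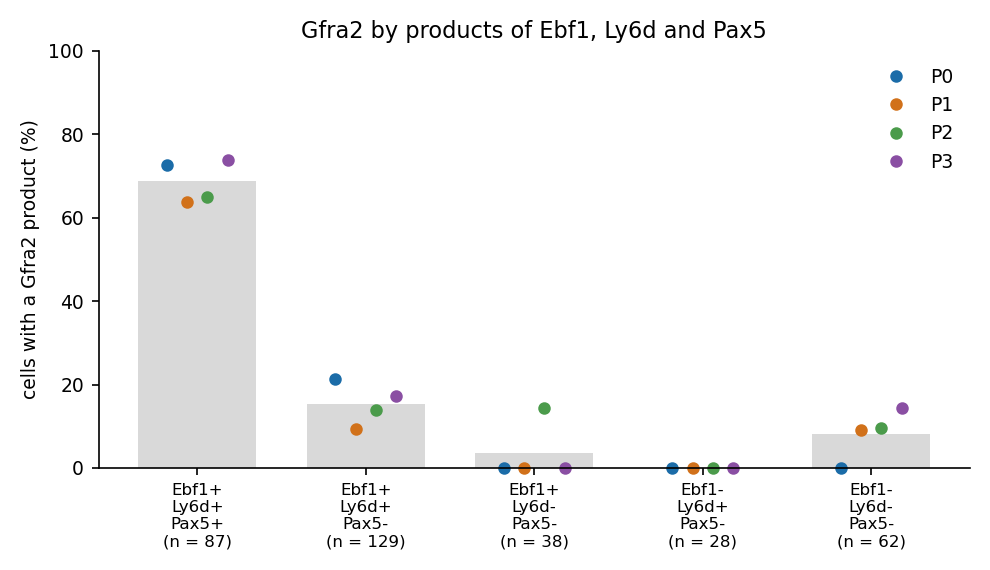
Share of cells with a Gfra2 product (y axis, percent) in cells grouped by products of Ebf1, Ly6d and Pax5 (x axis, n is the number of cells). Points are plates and bars their mean; all 4 plates lie between 63.6% and 73.9% in cells with all 3 products and at or below 21.2% in every Pax5-negative state.

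In cells where Gfra2 was on, its level was higher beside Pax5. The mean level was 15.50, 14.95, 15.42 and 15.03 cycles on P0 to P3 in cells with a Pax5 product, and 12.91, 14.20, 14.60 and 13.92 in cells without it. All 4 Pax5-positive values lay above all 4 Pax5-negative ones. The difference within plates was 1.32 ± 0.86 cycles (SD, n = 4 plates, SE 0.34), with an adjusted p of 0.0464 by limma over 57 assays, 6 of which were called higher in Pax5-positive cells (10.5%) and 5 lower (8.77%). Gfra2 was picked for its detection with Pax5, and detection and level are read from the same assays. The call is therefore no separate support for that link. The call also rests on few Pax5-negative cells, 7, 4, 7 and 8 on the 4 plates. It was lost without P1 (1.50 cycles, limma adjusted p = 0.0794), P2 (1.49, 0.0643) or P3 (1.39, 0.0571), and without P0 the difference was 0.89 cycles. It was also lost when levels were centred on the reference genes (1.47 cycles, limma adjusted p = 0.105), where the median difference of all 57 assays was 0.12 cycles, against -0.06 without centring.

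**Figure D2:**
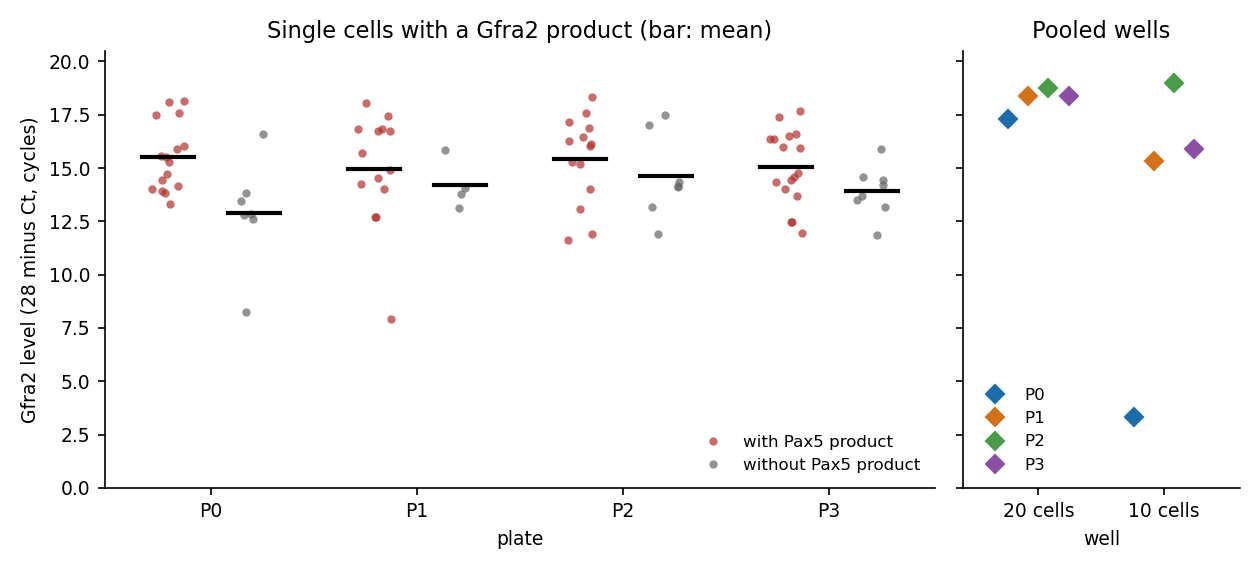
Left, Gfra2 level (y axis, 28 minus Ct, in cycles) of every single cell with a product, by plate, with Pax5-positive cells in red and Pax5-negative cells in grey, bars being means. Right, the wells of 20 and of 10 cells, 1 per plate; the 10-cell well of P0 stands apart at 3.31 cycles.

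Among positive cells the Gfra2 level went with that of Ebf1, FOX01 and Pax5. The rank correlation with the Ebf1 level was 0.59 to 0.80 within plates (mean 0.66, 82 cells), that with FOX01 0.54 to 0.73 (mean 0.63, 82 cells) and that with Pax5 0.45 to 0.79 (mean 0.61, 61 cells). With Ly6d it was weaker, at 0.04 to 0.42 (mean 0.27, 80 cells). The mean level of the reference genes in the same cell also went with Gfra2, at 0.21 to 0.72 (mean 0.48, 87 cells), and cells of a plate share their amplification and chip. These are descriptions across cells and carry no test, and the part of the cell's yield in them was not tested.

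Co-detection was described with the log2 odds ratio of 2 products in the same cell, taken within each plate with 0.5 added to each count. Of 48 partners, taken as assays seen in between 5% and 95% of cells whose no-RT products numbered below 4, 17 had a mean of at least 1 in size and the same sign on all 4 plates. Of these, 9 went with Gfra2 (18.8% of partners) and 8 were found apart from it (16.7%). Over all 1176 pairs of assays, 8.08% passed that fold with a positive sign and 4.59% with a negative sign. The median over Gfra2's partners was -0.06, and over all pairs 0.11.

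**Figure D3:**
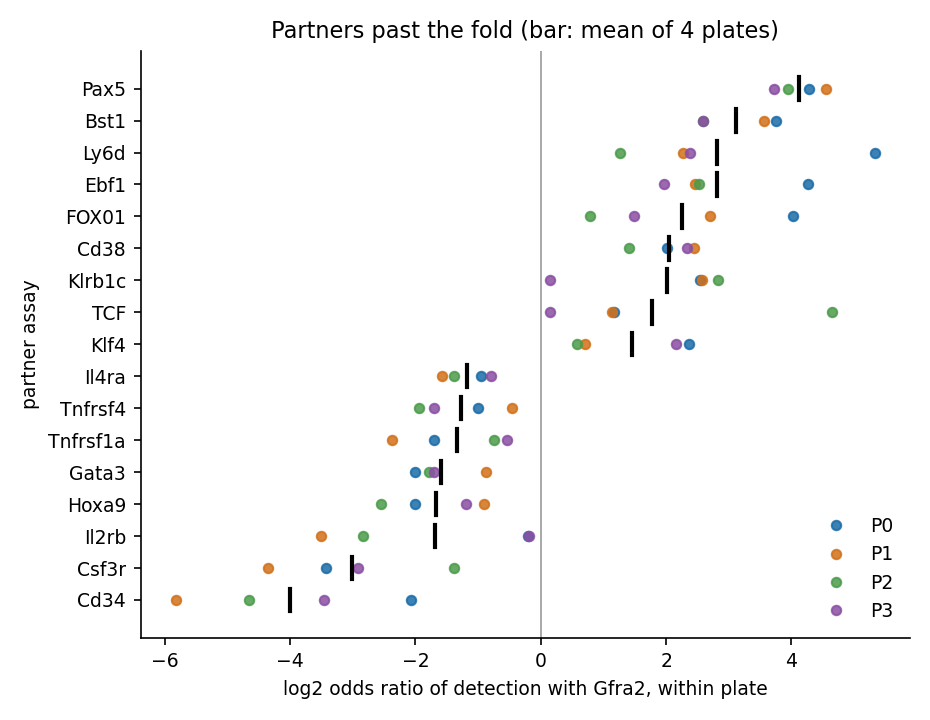
Log2 odds ratio of detection with Gfra2 (x axis) for the 17 partners past the fold (y axis), with points for plates and bars for their mean. Pax5 and Bst1 lie at or above 2.59 on every plate, and Csf3r and Cd34 at or below -1.38.

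B lymphoid genes led the list. Pax5 stood at 4.12 ± 0.36 (SD, n = 4 plates) and occurred in 61 of the 87 Gfra2-positive cells, where 22.6 would be met if the genes were independent. Bst1, an ectoenzyme that acts on NAD and is carried by lymphoid progenitors, stood at 3.12 ± 0.62 and occurred in 36 of 87 Gfra2-positive and 19 of 260 Gfra2-negative cells. Ly6d (2.81 ± 1.75) and Ebf1 (2.80 ± 1.00) were widespread, so their ratios rest on the few Gfra2-positive cells without them, 7 and 5. The FOX01 assay (2.25 ± 1.42) was of the same kind, with 94.3% of Gfra2-positive against 78.5% of Gfra2-negative cells. Cd38, an NAD enzyme related to Bst1, stood at 2.04 ± 0.47 and occurred in 29 of 87 against 27 of 260 cells. By the phi coefficient of detection over all kept cells the 5 genes most like Gfra2 were Pax5 (0.58), Bst1 (0.40), Ly6d (0.27), Cd38 (0.27) and Ebf1 (0.27).

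The other partners on this side, named after their values were seen, were less even. Klrb1c, which encodes the NK cell receptor NK1.1, occurred in 25 of 87 Gfra2-positive and 21 of 260 Gfra2-negative cells, and its ratio was between 2.54 and 2.82 on P0 to P2 but 0.15 on P3. The TCF assay ranged from 0.15 to 4.65. Klf4, a transcription factor of monocytes, ranged from 0.59 to 2.36, with 22 of 87 against 27 of 260 cells. Of the B lymphoid genes on the panel, Cd72 did not follow (-0.07 ± 0.55), being present in 92.0% of Gfra2-positive and 91.2% of Gfra2-negative cells, and Bcl11a was in nearly every cell and entered no ratio.

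The 8 partners found apart from Gfra2 were led by Cd34 and Csf3r. Cd34, a surface marker of stem and progenitor cells, was missing from 16 of 87 Gfra2-positive and 3 of 260 Gfra2-negative cells, a ratio of -4.00 ± 1.61 that rests on those few cells. That ratio was weaker without quality control of cells. Csf3r, the receptor for the granulocyte growth factor G-CSF, occurred in 14 of 87 Gfra2-positive cells (16.1%), against 59.6% of Gfra2-negative cells (-3.02 ± 1.24). All plates lay between -4.35 and -1.38, but these ratios too rest on few cells, the 14 spread over 4 plates. On P1 they were 0 Pax5-positive cells and 1 Pax5-negative cell. Gata3, a T cell and innate lymphoid regulator, occurred in 4 of 87 against 45 of 260 cells (-1.59 ± 0.50). Hoxa9, a homeobox gene of early progenitors, was missing from 23 of 87 against 26 of 260 cells (-1.66 ± 0.75). Il2rb, a chain of the receptors for interleukin 2 and interleukin 15, had a mean of -1.68 ± 1.74, but on P0 and P3 it stood at -0.20 and -0.19, and its mean without P1 was -1.07. The remaining partners were the receptor genes Tnfrsf1a (-1.34 ± 0.85), Tnfrsf4 (-1.27 ± 0.68) and Il4ra (-1.18 ± 0.36).

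Marker genes were also counted per cell. These lists hold the partners named above (Pax5, Bst1, Ebf1 and Ly6d, Gata3, Csf3r, Cd34 and Hoxa9), so the counts restate those shares and give no separate support. Gfra2-positive cells held a product for 5.08 ± 0.33 of 9 B lymphoid genes, against 3.40 ± 0.08 in Gfra2-negative cells (SD, n = 4 plates each). They held 0.17 ± 0.06 of 4 T lymphoid genes, against 0.41 ± 0.10, 1.53 ± 0.11 of 5 myeloid genes, against 1.84 ± 0.13, and 2.04 ± 0.14 of 3 stem and multipotent genes, against 2.38 ± 0.07. The B lymphoid count was higher on 4 of 4 plates, and the T, myeloid and stem counts were lower on 4 of 4. Of the 5 myeloid genes only Csf3r was found apart from Gfra2 past the fold, and Klf4 went with it (25.3% against 10.4%). Il6ra was at 20.7% against 16.2%, Csf1r at 20.7% against 22.7% and Gfi1 at 71.3% against 75.0%. Counts of 6 NK and innate lymphoid genes (2.54 ± 0.18 against 2.73 ± 0.12) and of 4 dendritic genes (1.44 ± 0.19 against 1.80 ± 0.20) overlapped between the classes. The yield of the cells did not run one way: Gfra2-positive cells gave 41.8 ± 1.6 other assays with a product against 42.3 ± 0.62 in Gfra2-negative cells, higher on 2 of 4 plates.

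Since most Gfra2-positive cells were also Pax5-positive, the partners were described again with Pax5 held fixed. Among the 90 Pax5-positive cells, 61 had Gfra2 and 29 did not. Of 43 partners, 4 went with Gfra2 past the fold and 1 was found apart from it, where over all 946 pairs in these cells 7.93% passed with a positive sign and 5.39% with a negative sign. The partners came to 9.30% and 2.33%, near those shares. With 1 plate left out 7 to 12 passed, and 12 without P0, but the sign then had to agree on fewer plates. The share of all pairs under that looser rule is not given here, so these counts do not show a dependence on a plate.

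Within Pax5-positive cells Bst1, Cd38 and CD90.2 were among the partners that went with Gfra2. Bst1 occurred in 30 of 61 Gfra2-positive cells (49.2%, exact 95% interval 36.1% to 62.3%) and 5 of 29 Gfra2-negative cells (17.2%, 5.85% to 35.8%), with a mean log2 odds ratio of 1.88 ± 0.67. Cd38 occurred in 22 of 61 against 3 of 29 (1.79 ± 1.46, and 1.08 without P3). The CD90.2 assay occurred in 21 of 61 against 4 of 29 (1.50 ± 0.76). The exact 95% intervals overlapped for Cd38 (24.2% to 49.4% against 2.19% to 27.4%) and for CD90.2 (22.7% to 47.7% against 3.89% to 31.7%). When cells of a plate were split at the median number of products, the mean of CD90.2 (0.74) fell short of the fold.

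Spib, an Ets factor of B and plasmacytoid dendritic cells, occurred in 5 of 61 against 0 of 29 (0.86 ± 0.23), and the CD22.2 assay in 7 of 61 against 1 of 29 (0.70 ± 0.32). Both sums are small, and both ratios changed sign when cells were split by their number of products. Lef1, a transcription factor of early B and T cells, occurred in 5 of 61 against 1 of 29, with a ratio of -0.08 ± 1.30.

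Csf3r was the 1 partner found apart from Gfra2 past the fold within these cells. It occurred in 6 of 61 Gfra2-positive against 9 of 29 Gfra2-negative cells (-2.08 ± 0.97). Cd9, a tetraspanin (-0.60 ± 0.56), and Klf4 (-0.54 ± 0.79) had the same sign on 4 of 4 plates but did not reach the fold. Klrb1c, which went with Gfra2 over all cells, occurred in 20 of 61 against 9 of 29 Pax5-positive cells (32.8% against 31.0%). Klf4 likewise occurred in 26.2% against 34.5%. For both genes the exact intervals of the 2 classes overlapped.

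Gfra2-positive cells without Pax5 were few, 26 in all, and were set against the cells with neither product. Bst1 occurred in 6 of 26 (23.1%, exact 95% interval 8.97% to 43.6%) against 14 cells with neither (6.06%, 3.35% to 9.96%), and Cd38 in 7 of 26 (26.9%) against 24 cells (10.4%). Csf3r occurred in 8 of 26 (30.8%) against 63.2%, and Cd34 was missing from 5 of 26 (80.8% with it) against 1 cell with neither (99.6% with it). Ebf1 occurred in 80.8% against 63.2%, Ly6d in 76.9% against 59.3%, and FOX01 in 80.8% against 76.2%. For Bst1, Cd38 and Csf3r the direction over cells pooled from the 4 plates was the same as in Pax5-positive cells. Not every plate showed it: on P1 Bst1 occurred in 0 of 4 against 3 of 61 cells. On P2 Csf3r was nearly level, in 4 of 7 against 35 of 59. In Pax5-positive cells Cd34 occurred in 50 of 61 against 27 of 29, but its log2 odds ratio was not of 1 sign on the plates, at 1.10 on P0, -2.87 on P1, -0.74 on P2 and -2.04 on P3 (mean -1.13 ± 1.73). Klrb1c occurred in 5 of 26 (19.2%) against 12 cells (5.19%) and Klf4 in 6 of 26 (23.1%) against 17 cells (7.36%). Whether the difference by Gfra2 depends on Pax5 was not tested.

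**Figure D4:**
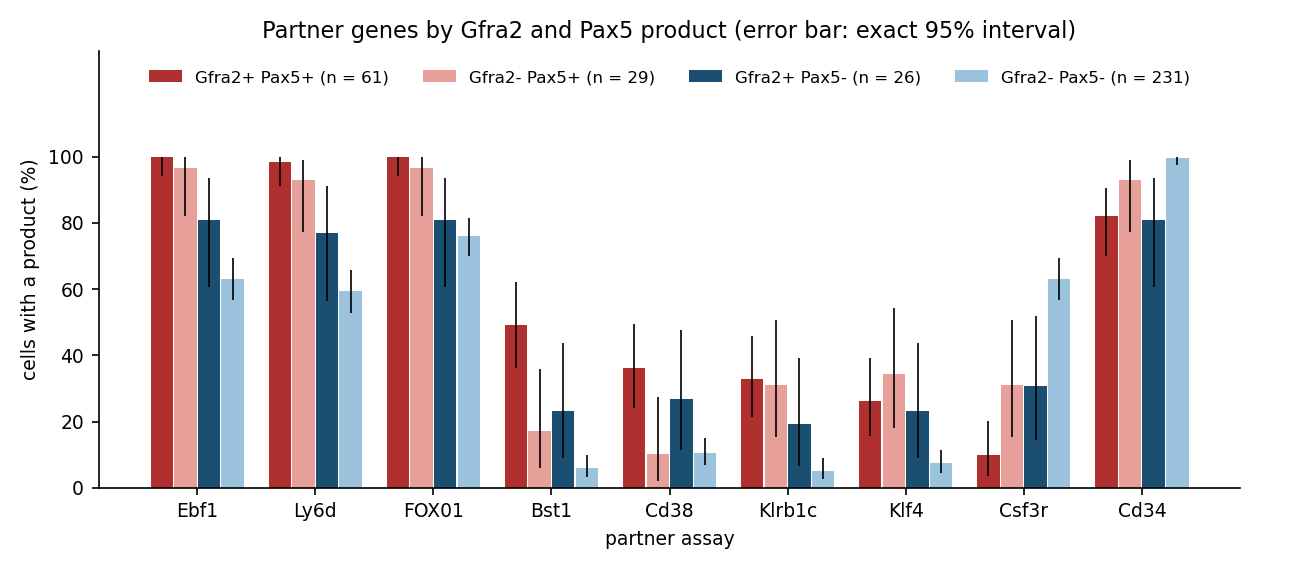
Share of cells with a product (y axis, percent) for 9 partners (x axis) in the 4 classes formed by Gfra2 and Pax5, with exact 95% intervals over cells that cover counting error only. With the cells of all plates pooled, Bst1 and Cd38 are higher, and Csf3r lower, beside Gfra2 in both Pax5 classes.

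The level of other genes was then compared between Gfra2-positive and Gfra2-negative cells, each gene in the cells where it had a product. Of 58 assays fitted with limma, 7 were called higher in Gfra2-positive cells (12.1%) and 3 lower (5.17%) at an adjusted p under 0.05. The median difference of the 58 assays was 0.05 cycles. After centring on reference genes the split was 6 higher and 7 lower, with 9 of the 10 calls shared.

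Ebf1, Ly6d, FOX01 and Pax5 were present at a higher level beside Gfra2. Ebf1 was at 15.83, 15.39, 15.63 and 15.21 cycles on P0 to P3 in Gfra2-positive cells, and at 13.25, 13.02, 13.05 and 13.05 in Gfra2-negative cells. The groups did not overlap, and the difference was 2.42 ± 0.20 cycles (SD over 4 plates; limma adjusted p = 9.29e-05). Ly6d was at 17.83, 16.27, 16.87 and 17.26 cycles, against 16.21, 14.97, 15.16 and 15.57, a difference of 1.58 ± 0.19 (limma adjusted p = 8.28e-04). FOX01 was higher by 1.61 ± 0.20 cycles on the same test, with an adjusted p of 8.28e-04. Pax5 itself, where present, was at 12.91, 12.84, 12.90 and 12.23 cycles, against 11.89, 11.50, 9.77 and 10.43, a difference of 1.82 ± 0.93 (limma adjusted p = 0.00429). Split by Pax5 product instead, the cells differed alike, Ebf1 by 2.44 ± 0.44 cycles, FOX01 by 1.73 ± 0.24 and Ly6d by 1.49 ± 0.29. The limma adjusted p was 0.00114, 0.00138 and 0.00240. Pax5 occurred in 70.1% of Gfra2-positive against 11.2% of Gfra2-negative cells, so this comparison cannot tell Gfra2 from Pax5. The call of the Pax5 level is likewise no separate support for the link that Gfra2 was picked for.

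Bst1 was higher by 1.11 ± 0.82 cycles (limma adjusted p = 0.0392) and Cd24a, a surface glycoprotein of immature B cells, by 0.94 ± 0.50 (0.0351). Both were higher on 4 of 4 plates, but each lost its call when 1 plate was left out, Bst1 without P0 (1.22 cycles) or P1 (0.70) and Cd24a without P0 (0.75) or P3 (0.87). Bst1 also lost it after centring on reference genes (0.67 cycles, limma adjusted p = 0.352), and both lost it with medians (Bst1 0.71, limma adjusted p = 0.312, and Cd24a 0.74, 0.0620), without the plate as a block (0.0947 and 0.0545) and without quality control of cells (0.0640 and 0.0533). Cd24a also gave a product in 13 of 16 no-RT wells, where reverse transcription played no part. The B lymphoid genes Bcl11a (0.09 ± 0.19 cycles) and Cd72 (0.06 ± 0.75) did not pass.

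Cd34 was lower where Gfra2 was on, in the cells that still had it. It was at 8.70, 6.12, 7.07 and 8.14 cycles in Gfra2-positive cells, against 10.28, 8.61, 9.84 and 9.49 in Gfra2-negative cells. The plates overlapped between the classes, yet each plate was lower, and the level fell by 2.05 ± 0.69 cycles on average (limma adjusted p = 8.28e-04). Cd68, a lysosomal protein of macrophages, fell by 2.01 ± 0.93 cycles and the CDw199 assay by 1.30 ± 0.99 (limma adjusted p = 0.00255 and 0.0351). Cd68 gave a product in 11 of 16 no-RT wells and CDw199 in 14 of 16, and the part of that background in these differences was not tested. Cd68 stood at -1.10 with a Ct limit of 26 and lost its call with medians (-1.54, limma adjusted p = 0.159). CDw199 lost its call without P1 (-1.23) or P2 (-0.89), and also without the plate as a block or quality control. Split by Pax5 product, the differences were -2.62 ± 0.78 cycles for Cd34, -2.41 ± 0.44 for Cd68 and -2.41 ± 1.35 for CDw199. Their limma adjusted p was 0.00240, 0.00114 and 0.0236.

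**Figure D5:**
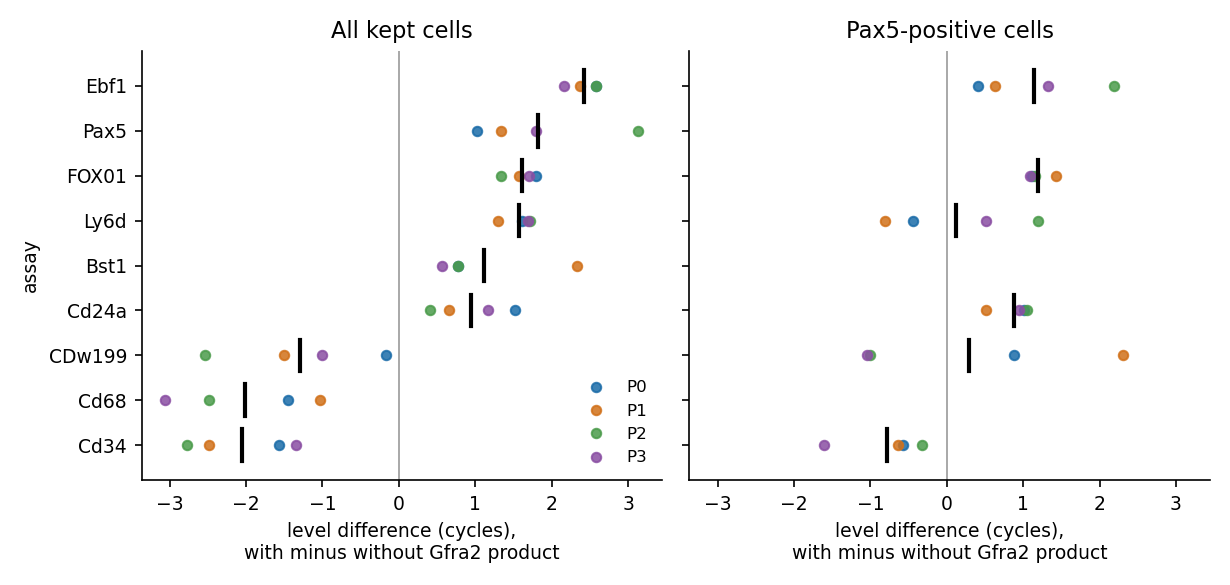
Difference in level (x axis, cycles, Gfra2-positive minus Gfra2-negative cells) for 9 of the 10 assays called over all kept cells (left) and for the 6 of these fitted among Pax5-positive cells (right), with points for plates and bars for means. Ebf1, FOX01 and Ly6d lie between 1.30 and 2.58 on every plate on the left, while Ly6d spreads around 0 on the right.

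Among Pax5-positive cells alone 0 of 37 assays passed in limma (0.0% called higher, 0.0% called lower), and 5 had an unadjusted p under 0.05. FOX01 came nearest, at 15.05, 14.28, 13.92 and 13.93 cycles in Gfra2-positive cells, against 13.93, 12.86, 12.77 and 12.84 in Gfra2-negative cells. Its difference was 1.20 ± 0.15 cycles on 4 of 4 plates, with a limma adjusted p of 0.0533, and it passed in 5 of 13 other settings. Ebf1 differed by 1.14 ± 0.80 cycles and Cd24a by 0.88 ± 0.25 (limma adjusted p = 0.139 for both), and Cd34 by -0.79 ± 0.56 (0.287). Ly6d, which differed over all cells, here had differences between -0.80 and 1.20 on the plates. The classes held 14 to 17 Gfra2-positive and 6 to 8 Gfra2-negative cells a plate. The median of all 37 differences was 0.19 cycles, and -0.04 after centring on the reference genes.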

How the data were processed

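Per the labels' protocols, sorted cells were lysed and frozen, reverse transcribed and pre-amplified in the well with all 96 TaqMan assays, and read on a BioMark HD instrument. The authors deposited 36864 Ct values, not normalized. How the instrument's software set the Ct threshold is not given in these sources. Pre-amplification multiplies every product, so a missing product means not detected at a sensitivity that is not known per assay. Each column was matched to the sample of the same title. Of the assay names, 47 matched a symbol and 34 a synonym in a RefSeq gene table (GRCm38.p6, used for names alone), and 15 kept the file's name, with no role given. Genome positions and promoter sequences were not used here.

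A single-cell well was kept with a product (Ct below 28) for over 50% of 4 reference genes and for at least 50% of the plate's median number of assays. Shares have exact 95% intervals, and limits for 0 use 3 counts. For each assay with at least 3 cells with a product per class and plate, mean levels were differenced within the plate and tested against 0 with limma 3.58.1 (R 4.3.3), with Benjamini-Hochberg adjustment over all assays fitted and a threshold of 0.05. Pooled wells were compared by exact permutation (Python 3.11.15, scipy 1.17.1). The plate pairs the classes, since both come from it; the 2 classes' deviations on a plate correlated at -0.02 to 0.28 by Gfra2, 0.003 to 0.46 by Pax5 and 0.05 to 0.56 among Pax5-positive cells. On simulated data with 10 changed assays per run the fit by Gfra2 over 58 assays recovered 60% of changes of 1 cycle and 94% of changes of 2 cycles, with 0.4 false calls per run, and the fit among Pax5-positive cells over 37 assays recovered 46% and 87%. The simulated plate means varied by the spread between cells alone, with no effect of plate and assays drawn independently. The rates in these data may therefore differ.

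Gfra2, the gene lists and the thresholds were chosen with earlier results of these data known. Named were, besides Gfra2, the pathway list, the B lymphoid list, the 6 highest and 6 lowest mean odds ratios of 1 sign on 4 plates, the 5 highest phi coefficients and every gene called in a test of level; some genes that these rules take in are not reported here. Alternatives changed the Ct limit, quality control, scale, summary, filters, pseudocount, block and plates used.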

Additional observations from a re-analysis of the deposited data

Results flagged for a closer look

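Of 59 values tested for a plate far from the other 3, 6 stood out, where chance gives about 1 in 20. The 10-cell well of P0 gave a product for 29 assays, against 68 to 71 in the other 3 wells of 10 cells. The level difference of Bst1 between Gfra2-positive and Gfra2-negative cells was 2.34 cycles on P1, against 0.56 to 0.78 on the other plates. That of CD90.2 was -0.95 cycles on P0, against -0.35 to -0.26 on the others. Among Pax5-positive cells the log2 odds ratio of Gfra2 with CD90.2 was 2.64 on P0, against 1.10 to 1.14, and that with Klf4 was -1.72 on P1, against -0.21 to -0.07. Gfra2 was found in 14.3% of cells with Ebf1 alone on P2, that is in 1 of 7, and in 0.0% on each of the other plates.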

How the results depend on the processing

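Over 54 values, each reached under every alternative that could be fitted, the level calls of Ebf1, Ly6d, FOX01, Pax5 and Cd34 by Gfra2 kept their direction and their call. The Gfra2 level difference by Pax5 was 0.89 to 1.50 cycles with 1 plate left out. It missed the threshold without P1, P2 or P3, with levels centred on reference genes (1.47) and, an alternative chosen after seeing the data, with the 50 assays found in fewer than 4 no-RT wells (1.32). It had no value with at least 5 cells per class and plate, since 1 plate had 4. Without the plate as a block it was 1.32 with a limma adjusted p of 0.0250, and 7 assays were called by Gfra2 in place of 10. With the plate as a block the exact sign-flip p was 0.25 for the 20-cell wells and 0.375 for the 10-cell wells, n = 4 each. With 4 plates the sign-flip test cannot reach a p under 0.05.

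Among Pax5-positive cells 0 assays were called, against 1 with a Ct limit of 26, at least 5 cells, medians or only assays in fewer than 4 no-RT wells, and 3 without the 2 cells with a Ct of 17 or more (both of these last chosen after seeing the data). Levels centred on reference genes turned the 20-cell against 10-cell difference to -0.16 and the 10-cell against mean-cell difference to 0.41. Partners past the fold in Pax5-positive cells numbered 3, of which 1 with Gfra2, when cells were split by number of products. They numbered 7 to 12, of which 4 to 8 with Gfra2, with 1 plate left out, where the sign has to agree on fewer plates. In the split by number of products Spib turned to -0.18 and CD22.2 to -0.16. The split adds 0.5 to the counts of each stratum.

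Level differences that had not passed changed sign in places. By Gfra2 and with 1 plate left out, Cd38 ranged from -0.0286 to 0.162 and Tnfrsf1a from -0.0566 to 0.137 cycles. Tnfrsf1a was -0.0296 after centring, and with medians Cd38 was -0.381, Cd9 -0.141 and Klf4 0.361. Among Pax5-positive cells and with 1 plate left out, Ly6d ranged from -0.242 to 0.425 and Tnfrsf1a from -0.0959 to 0.619. Ly6d was -0.104 after centring and -0.0591 with medians. Over all cells the log2 odds ratio with Cd34 was -1.92 without quality control of cells, against -4.00 with it. The causes were not tested. The planned look at protein and promoter sequence of Gfra2 was not run.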
